A study of Mus musculus with 8 samples.

Results

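Macrophages sense oxysterols, fatty acids and retinoids through nuclear receptors, and 9 genes of that system were followed here in peritoneal macrophages (pMacs) with and without CD1d, the MHC class I-like molecule that presents lipids to T cells. The 9 genes are the Liver X receptors (LXR) *Nr1h2* and *Nr1h3*, the peroxisome proliferator-activated receptors (PPAR) *Ppara*, *Ppard* and *Pparg*, the retinoid X receptors (RXR) *Rxra* and *Rxrb*, the corepressor *Ncor1* and the coactivator *Ncoa1*. They were listed by name, with earlier results of these data known, and matched to Ensembl gene IDs through the GENCODE M21 annotation of GRCm38. All 9 were found among the 48795 gene IDs of the files, and 9 of 9 passed the filter on low counts, which left 13040 genes for testing.

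LXRα (encoded by *Nr1h3*) and LXRβ (encoded by *Nr1h2*) bind oxysterols and switch on genes for sterol efflux and lipoprotein handling. The PPARs bind fatty acids and their derivatives and switch on genes for fatty acid uptake, storage and oxidation. Both kinds of receptor bind DNA as heterodimers with an RXR. In the absence of a ligand the dimer can hold a corepressor complex built on NCoR1, and ligand binding exchanges it for coactivators such as NCoA1 (SRC-1). In macrophages ligand-bound LXRs and PPARγ can also restrain inflammatory genes, in part by keeping corepressor complexes at their promoters.

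The series holds 8 poly(A) RNA libraries of pMacs, described as biological replicates, 4 of them WT and 4 CD1d-KO. The methods of the study give as many mice as libraries for each genotype. Both genotypes carry the replicate numbers 1, 2, 3 and 5, and libraries with the same number were treated as 4 pairs. WT mice were C57BL/6 by the series description and littermates of the knockouts by the study's text. For CD1d-KO mice the labels give the genotype alone. The methods of the study name a cross of CD1d flox with PGK Cre, in which Cre is driven broadly, besides the line B6.129S6-Del(3Cd1d2-Cd1d1)1Sbp/J, a germline deletion of both *Cd1d* genes. They do not say which line was sequenced. Animals were age- and sex-matched in the study. The labels name no treatment of the mice or the cells.

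The libraries held between 13698864 and 19059432 expected counts. The deleted gene *Cd1d1* had 68.2, 175, 96.1 and 141 normalized counts in WT replicates 1, 2, 3 and 5, and 1.14, 0 and 1.10 in CD1d-KO replicates 2, 3 and 5. The library labelled CD1d-KO replicate 1 had 60.7 and thus goes against its label, so results are also given without replicate 1 (both libraries of that pair left out). All 8 libraries carried the markers of large peritoneal macrophages, whose 8 genes summed to 1938 to 2572 TPM (transcript abundance scaled to a fixed total, corrected for transcript length) in WT and 2033 to 2517 in CD1d-KO pMacs. *Itgam*, *Cd9* and *Adgre1* made up most of this sum. *Gata6* stood at 10.65 to 29.0 TPM in WT and 13.2 to 28.3 in CD1d-KO. Markers of small peritoneal macrophages and dendritic cells summed to 930 to 2022 TPM in WT and 636 to 2716 in CD1d-KO. This sum was mostly *Cd74* (653 to 1465 TPM in WT, 428 to 2006 in CD1d-KO) and *H2-Ab1* (238 to 487 and 175 to 628). It thus follows these genes more than the other markers of the list. Markers of B cells summed to 65.3 to 198 and 38.6 to 335 TPM, and those of T and NK cells to 5.84 to 8.12 and 3.14 to 9.44. Mast cell markers summed to 7.23 to 20.6 and 4.64 to 16.5 TPM, eosinophil markers to 3.36 to 4.12 and 2.94 to 7.14, and mesothelial markers to 0.03 to 0.1 and 0.06 to 0.19. The sum of neutrophil markers did not overlap between the genotypes, at 11.04 to 15.9 TPM in WT and 18.2 to 25.0 in CD1d-KO. Of these 6 genes 4 were at 3 counts or fewer in every library. The 2 that were tested went opposite ways, 1 higher (log2 fold change 0.83) and 1 lower (-0.87) in CD1d-KO. Both had an unadjusted p under 0.05 in edgeR. The part of these other cells in the results below was not tested. In such bulk samples fewer cells of a type and less RNA per cell cannot be told apart.

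The promoters of the 9 genes are shown first, since these receptors bind DNA themselves. The RefSeq promoter table (build GRCm38.p6) held 15 starts for the 9 genes, and the 250 bases before each start were searched on both strands. The sequence AGGTCA is the half-site that LXR, PPAR and RXR dimers read in pairs. It was present before 3 of the 15 starts, which belong to 2 genes (*Pparg* and *Rxra*), and before 14.0% of all 32851 promoters in the table. The paired form with 1 base between the half-sites that PPAR dimers prefer (AGGTCANAGGTCA) was found in 0 of the 15 and in 0.0335% of all promoters. The form with 4 bases between them that LXR dimers prefer (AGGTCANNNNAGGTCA) was found in 0 of the 15 and in 0.0152%. The GC box GGGCGG, which general activators such as SP1 read, stood before 9 of the 15 starts in 7 genes, against 32.7% of all promoters. The sequence CCAAT stood before 3 starts of 2 genes (33.8% of all), and the E-box CACGTG before 0 (6.02% of all). A match is a string of letters in this window and no evidence of binding. The paired forms contain the half-site, and the other motifs do not contain one another.

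The windows printed here are free of annotated exons. They were taken to show a receptor gene without any of these motifs (*Nr1h2*), the start of *Pparg* with a pair of CCAAT boxes, the start of *Rxra* with a pair of half-sites, and the internal start of the gene whose transcript make-up is described further on (*Ncor1*). Each reads 5′ to 3′ on the strand of its gene, and capitals mark CCAAT in *Pparg* and AGGTCA or its reverse complement in *Rxra*.
*Nr1h2*, upstream of the gene, chr7:44553966-44554215, minus strand: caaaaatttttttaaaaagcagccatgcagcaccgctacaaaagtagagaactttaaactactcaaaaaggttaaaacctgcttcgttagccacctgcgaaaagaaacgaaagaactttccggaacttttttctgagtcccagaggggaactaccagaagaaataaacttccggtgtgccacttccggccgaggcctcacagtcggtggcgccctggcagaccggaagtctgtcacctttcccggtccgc
*Pparg*, upstream of the most downstream start, chr6:115421816-115422065, plus strand: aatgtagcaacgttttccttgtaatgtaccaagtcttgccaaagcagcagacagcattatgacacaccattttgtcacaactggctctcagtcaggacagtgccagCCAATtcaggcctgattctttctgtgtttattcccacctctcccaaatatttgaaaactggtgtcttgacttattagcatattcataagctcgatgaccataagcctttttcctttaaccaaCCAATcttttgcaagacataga
*Rxra*, upstream of the downstream start, chr2:27709042-27709291, plus strand: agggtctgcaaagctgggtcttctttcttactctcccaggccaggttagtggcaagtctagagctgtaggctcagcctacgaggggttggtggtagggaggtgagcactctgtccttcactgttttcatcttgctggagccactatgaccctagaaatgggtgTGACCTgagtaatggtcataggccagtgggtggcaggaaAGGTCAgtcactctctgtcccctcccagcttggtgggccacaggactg
*Ncor1*, upstream of the internal start, chr11:62438516-62438765, minus strand: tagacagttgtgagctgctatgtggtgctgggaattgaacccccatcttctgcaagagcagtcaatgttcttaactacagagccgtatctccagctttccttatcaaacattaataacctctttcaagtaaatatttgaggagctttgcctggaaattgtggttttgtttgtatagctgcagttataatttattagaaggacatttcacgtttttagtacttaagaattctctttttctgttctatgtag

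The CCAAT boxes of this *Pparg* window begin 144 and 22 bases before the start, and the half-sites of the *Rxra* window begin 87 and 48 bases before it. The half-sites of *Rxra* lie on opposite strands and form neither paired motif. The windows of *Nr1h2* and *Ncor1* held 0 of the 6 motifs, and their GC contents were 48.4% and 36.8%.

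The first question was how much of each receptor and cofactor the pMacs carried. Levels are compared between genes only in TPM, which divides by transcript length. *Nr1h2* was the most abundant of the 9, with a mean of 91.6 TPM over the 8 libraries (range 79.2 to 101), at the 90.4th percentile of the tested genes. *Ncor1* followed at 80.7 TPM (68.9 to 89.6), and the ranges of these neighbours overlapped, with *Nr1h2* above *Ncor1* in 7 of 8 libraries.

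*Ppard*, the PPAR found in most tissues, stood at 46.2 TPM (40.6 to 56.7) and *Rxra* at 31.1 TPM (27.9 to 35.3). *Ncoa1* at 19.6 TPM (16.7 to 24.01) and *Rxrb* at 19.0 TPM (14.6 to 26.2) could not be ordered, since *Ncoa1* was above *Rxrb* in 5 of 8 libraries. *Nr1h3*, the LXR that is itself abundant in liver and in many macrophages, reached 9.97 TPM (7.11 to 14.2).

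*Pparg*, known for its part in adipocytes and in alveolar macrophages, was at 3.14 TPM (0.85 to 5.22). *Ppara*, known for fatty acid oxidation in the liver, was at 1.005 TPM (0.59 to 1.51), the 9.0th percentile of the tested genes. The last 2 ranges overlapped, with *Pparg* above *Ppara* in 7 of 8 libraries. Apart from *Nr1h2* and *Ncor1*, *Ncoa1* and *Rxrb*, and *Pparg* and *Ppara*, neighbours in this order had ranges without overlap over the 8 libraries, as the plot of levels shows.

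**Figure D1:**
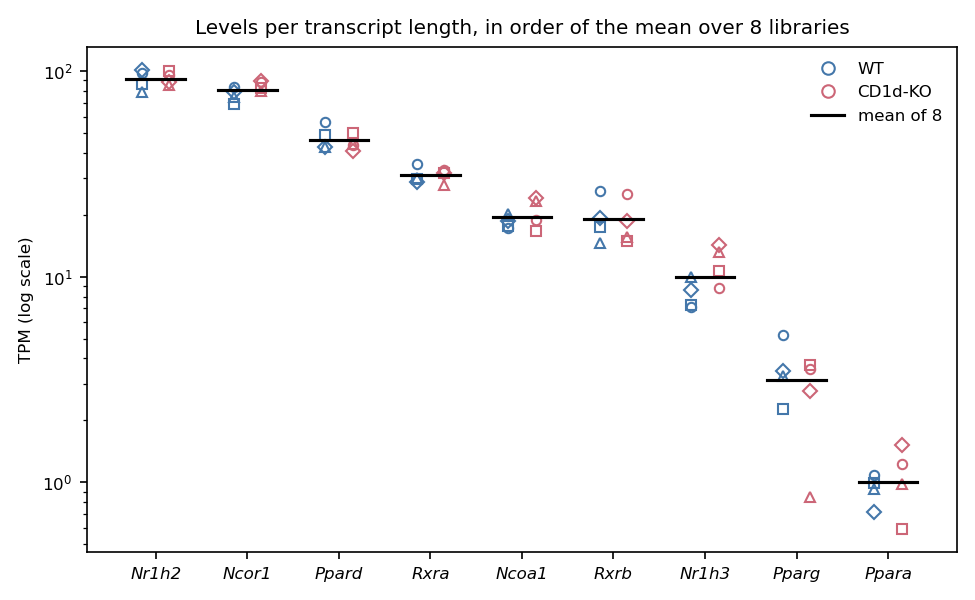
TPM of the 9 genes (log scale) in each library, WT in blue and CD1d-KO in red, with a symbol for each replicate number (circle 1, square 2, triangle 3, diamond 5) and a bar at the mean of 8 libraries. The genes run from *Nr1h2* at 91.6 TPM to *Ppara* at 1.005 TPM, and within each gene the genotypes overlap.

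Within each receptor family 1 gene supplied most of the transcripts. *Nr1h2* made up 86.1% to 93.2% of the LXR transcripts, whose sum was 89.2 to 110 TPM. *Ppard* made up 90.0% to 96.0% of the PPAR transcripts (sum 44.9 to 63.1 TPM). *Rxra* made up 56.8% to 68.3% of the transcripts of *Rxra* and *Rxrb* (sum 43.6 to 61.5 TPM). The third RXR gene, *Rxrg*, had 1, 8, 7 and 5 expected counts in WT replicates 1, 2, 3 and 5. In CD1d-KO replicates 1, 2, 3 and 5 it had 18, 5, 15 and 17, and it did not pass the filter. The sum of LXR and PPAR transcripts was 2.63 to 3.51 times that of the RXR transcripts.

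The main comparison asked whether loss of CD1d goes with altered levels of these genes. None of the 9 reached both an adjusted p under 0.01 and a change of more than 1.5-fold when tested by quasi-likelihood in edgeR (0 of 9, against 0.0383% of all tested genes), and DESeq2 also called 0 of 9 (against 0.989% of the genes it tested), with no adjusted p for *Ppara*. At an unadjusted p under 0.05 there was 1 of the 9, *Nr1h3*, which was higher in CD1d-KO pMacs, against 12.4% of all tested genes. Normalized counts of the genotypes were free of overlap for 0 of the 9, against 1.95% of tested genes. The median log2 fold change of the 9 was 0.0026, with 5 above and 4 below 0, and that of all tested genes was 0.0047. Without replicate 1, 0 of 9 were called and their log2 fold changes ran from -0.57 (*Pparg*) to 0.48 (*Nr1h3*). The deleted gene *Cd1d1* was not called by the main fit either (log2 fold change -3.42, adjusted p = 0.233 from edgeR). Without replicate 1 its log2 fold change was -7.27 (adjusted p = 0.000685 from edgeR). A gene that is not called is thus not shown to be unchanged. Fold changes are CD1d-KO over WT throughout, on the scale of normalized counts, that is, counts brought to the average depth of the 8 libraries.

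**Figure D2:**
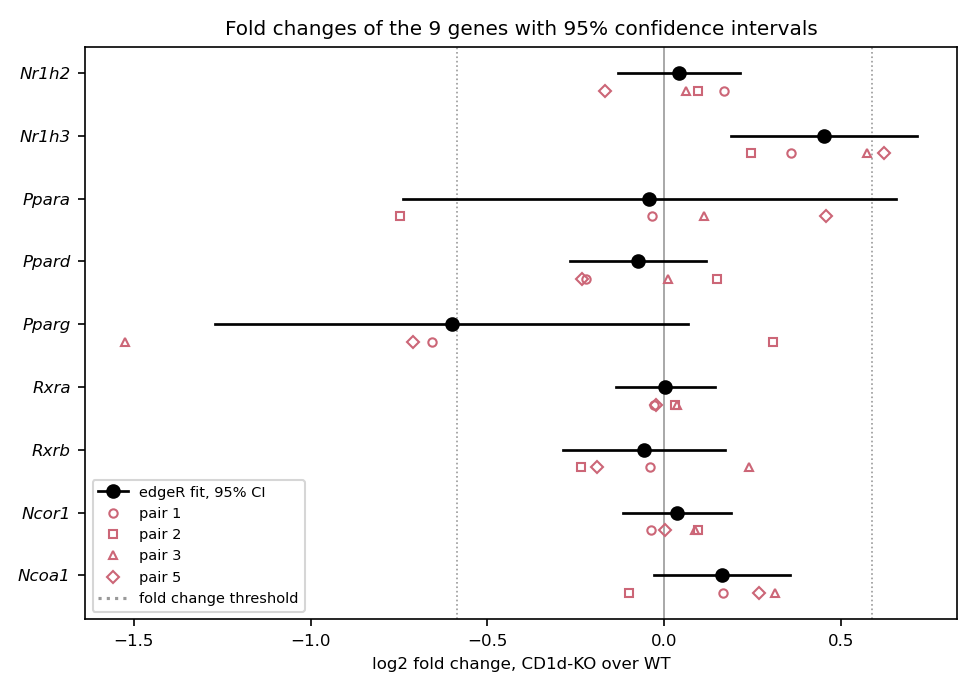
Log2 fold change of each gene, CD1d-KO over WT, from edgeR with its 95% confidence interval (black) and the 4 pair ratios of normalized counts below it (red symbols), with dotted lines at the 1.5-fold threshold in each direction. The interval of *Nr1h3* (0.19 to 0.71) alone lies to one side of 0, and those of *Pparg* and *Ppara* are the widest.

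Of the LXR genes, *Nr1h3* (ENSMUSG00000002108, chromosome 2 from 91184061 to 91202834, minus strand) had 109, 134, 163 and 138 normalized counts in WT replicates 1, 2, 3 and 5. In CD1d-KO replicates 1, 2, 3 and 5 it had 140, 159, 243 and 212. CD1d-KO was the higher library of every pair, while the groups overlapped, since the 2 lowest CD1d-KO libraries lay under the highest WT library. The means were 136 ± 22.1 and 189 ± 47.4 (SD, n = 4 each). This is a log2 fold change of 0.45 with a standard error of 0.11 (95% interval 0.19 to 0.71), a 1.37-fold higher level (1.14 to 1.64). Its adjusted p was 0.169 from edgeR (unadjusted p = 0.00449) and 0.271 from DESeq2, and ran from 0.0828 to 0.997 over all settings tried, so *Nr1h3* was not called in any of them. Without replicate 1 the log2 fold change was 0.48 (adjusted p = 0.377 from edgeR). Markers of large peritoneal macrophages stood beside this value with a median log2 fold change of 0.23. At an unadjusted p under 0.05 in edgeR, 3 of these 8 genes were higher and 0 lower, against 12.4% of all tested genes. Of the 8 markers 6 were above 0 and 2 below it, from -0.27 to 0.65. Medians were also above 0 for markers of B cells (0.18), of small peritoneal macrophages and dendritic cells (0.13) and of T and NK cells (0.10, 1 gene tested). They were below 0 for mast cells (-0.51), neutrophils (-0.02) and eosinophils (-0.01). The part of these cells in the value of *Nr1h3* was not tested.

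*Nr1h2* (ENSMUSG00000060601, chromosome 7 from 44549616 to 44553951, minus strand) had 1126, 1384, 1236 and 1339.8 normalized counts in WT and 1265, 1479, 1289 and 1193 in CD1d-KO pMacs. The libraries of both genotypes were interleaved. In edgeR the log2 fold change of 0.04 ± 0.07 (SE) had an adjusted p of 0.887, and the 95% interval of the fold was 0.912 to 1.16. Within a library, the ratio of *Nr1h3* to *Nr1h2* in TPM was 0.0729, 0.0846, 0.126 and 0.0848 in WT and 0.0924, 0.107, 0.154 and 0.161 in CD1d-KO. The ratio was higher in the CD1d-KO library of 4 of 4 pairs, and the groups overlapped. On the log2 scale it differed by 0.47 ± 0.31 (SD over 4 pairs), with p = 0.125 in an exact sign-flip test (two-sided), the smallest that 4 pairs allow, and 0.75 after adjustment over the 6 ratios compared. Without replicate 1 the difference was 0.52.

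Of the PPAR genes, *Ppard* (ENSMUSG00000002250, chromosome 17 from 28232700 to 28301474, plus strand) had 1283, 1356, 1276 and 1186 normalized counts in WT and 1100.1, 1502, 1285 and 1009 in CD1d-KO pMacs. WT libraries lay inside the range of the CD1d-KO libraries, which spread more widely. The means were 1275 ± 69.8 and 1224 ± 218 (SD, n = 4 each). In edgeR the log2 fold change of -0.07 ± 0.08 (SE) had an adjusted p of 0.776, CD1d-KO was higher in 2 of 4 pairs, and the 95% interval of the fold was 0.831 to 1.085. Without replicate 1 the log2 fold change was -0.02, and it ran from -0.15 (without replicate 2) to -0.02 when each pair was left out in turn.

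*Pparg* (ENSMUSG00000000440, chromosome 6 from 115360951 to 115490399, plus strand) had 82.4, 46.2, 54.1 and 61.1 normalized counts in WT and 52.3, 57.2, 18.8 and 37.4 in CD1d-KO pMacs. CD1d-KO replicate 3 was the lowest of the 8 libraries and WT replicate 1 the highest, the remaining libraries of both genotypes overlapped, and CD1d-KO was higher in 1 of 4 pairs. The means were 61.0 ± 15.6 and 41.4 ± 17.3 (SD, n = 4 each), a log2 fold change of -0.60 with a standard error of 0.29 (95% interval -1.27 to 0.07). This did not pass the test (adjusted p = 0.450 with edgeR, 0.682 with DESeq2), and at 16 to 110 expected counts per library the interval of the fold ran from 0.415 to 1.05. Without replicate 1 the log2 fold change was -0.57. It was -0.91 without replicate 2, -0.36 without replicate 3 and -0.34 with limma on log2(TPM + 1), lower in CD1d-KO in each case. The adipocyte markers *Adipoq*, *Lep* and *Cidec* were at 0 counts in all 8 libraries, and the 5 adipocyte markers summed to at most 0.65 TPM.

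*Ppara* (ENSMUSG00000022383, chromosome 15 from 85734983 to 85802819, plus strand) had 21.0, 26.9, 22.8 and 20.03 normalized counts in WT and 20.5, 16.0, 24.7 and 27.5 in CD1d-KO pMacs. The highest and the lowest of the 8 libraries were both CD1d-KO. For this gene the log2 fold change of -0.04 had a standard error of 0.30 and an adjusted p of 0.971 in edgeR. With 14 to 28 expected counts per library, the interval of the fold ran from 0.599 to 1.57 and thus held a 1.5-fold change in either direction.

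The RXR genes encode the common dimer partners. *Rxra* (ENSMUSG00000015846, chromosome 2 from 27676440 to 27762957, plus strand) had 1396, 1485, 1466 and 1399 normalized counts in WT and 1368, 1516, 1502.5 and 1375 in CD1d-KO pMacs. Pairs followed each other closely, with replicates 1 and 5 low and replicates 2 and 3 high in both genotypes. Between genotypes the log2 fold change of 0.0026 ± 0.06 (SE) had an adjusted p of 0.990 in edgeR, and the 95% interval of the fold was 0.91 to 1.10.

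*Rxrb* (ENSMUSG00000039656, chromosome 17 from 34031812 to 34038399, plus strand) had 426, 376, 306 and 349 normalized counts in WT and 414, 319, 362 and 306 in CD1d-KO pMacs. Replicate 1 was the highest library of each genotype, and the groups overlapped throughout. With edgeR, *Rxrb* had a log2 fold change of -0.06 ± 0.10 (SE, adjusted p = 0.871), with an interval of the fold from 0.82 to 1.125. The ratio of *Rxra* to *Rxrb* in TPM ran from 1.35 to 2.05 in WT and from 1.31 to 2.15 in CD1d-KO libraries (exact sign-flip p = 0.75, two-sided, adjusted p = 1.0 over 6 ratios).

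*Ncor1*, the scaffold of the corepressor complex with HDAC3, lies on chromosome 11 from 62316426 to 62458541 on the minus strand (ENSMUSG00000018501). It had 2516, 2456, 2566.5 and 2603 normalized counts in WT and 2449, 2621, 2727 and 2604 in CD1d-KO pMacs. All 8 libraries lay close together, and the groups overlapped. With edgeR, *Ncor1* had a log2 fold change of 0.04 ± 0.07 (SE, adjusted p = 0.885), and the interval of the fold was 0.92 to 1.14.

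*Ncoa1*, a p160 coactivator with histone acetyltransferase activity (ENSMUSG00000020647, chromosome 12 from 4247362 to 4477182, minus strand), had 1077.5, 1371, 1521 and 1346 normalized counts in WT. In CD1d-KO it had 1208.5, 1279, 1889 and 1621. CD1d-KO replicates 3 and 5 stood above every WT library and the others among them, and CD1d-KO was higher in 3 of 4 pairs. Its log2 fold change of 0.16 ± 0.08 (SE, 95% interval -0.03 to 0.35) did not pass the test of edgeR (adjusted p = 0.477). The ratio of *Ncor1* to *Ncoa1* in TPM was 4.18 ± 0.49 in WT and 4.18 ± 0.72 in CD1d-KO (SD, n = 4 each, exact sign-flip p = 1.0, two-sided). The ratios of *Ppard* to *Pparg* (exact sign-flip p = 0.625), *Ppara* to *Ppard* (0.625) and LXR plus PPAR to RXR (0.875) did not pass either.

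**Figure D3:**
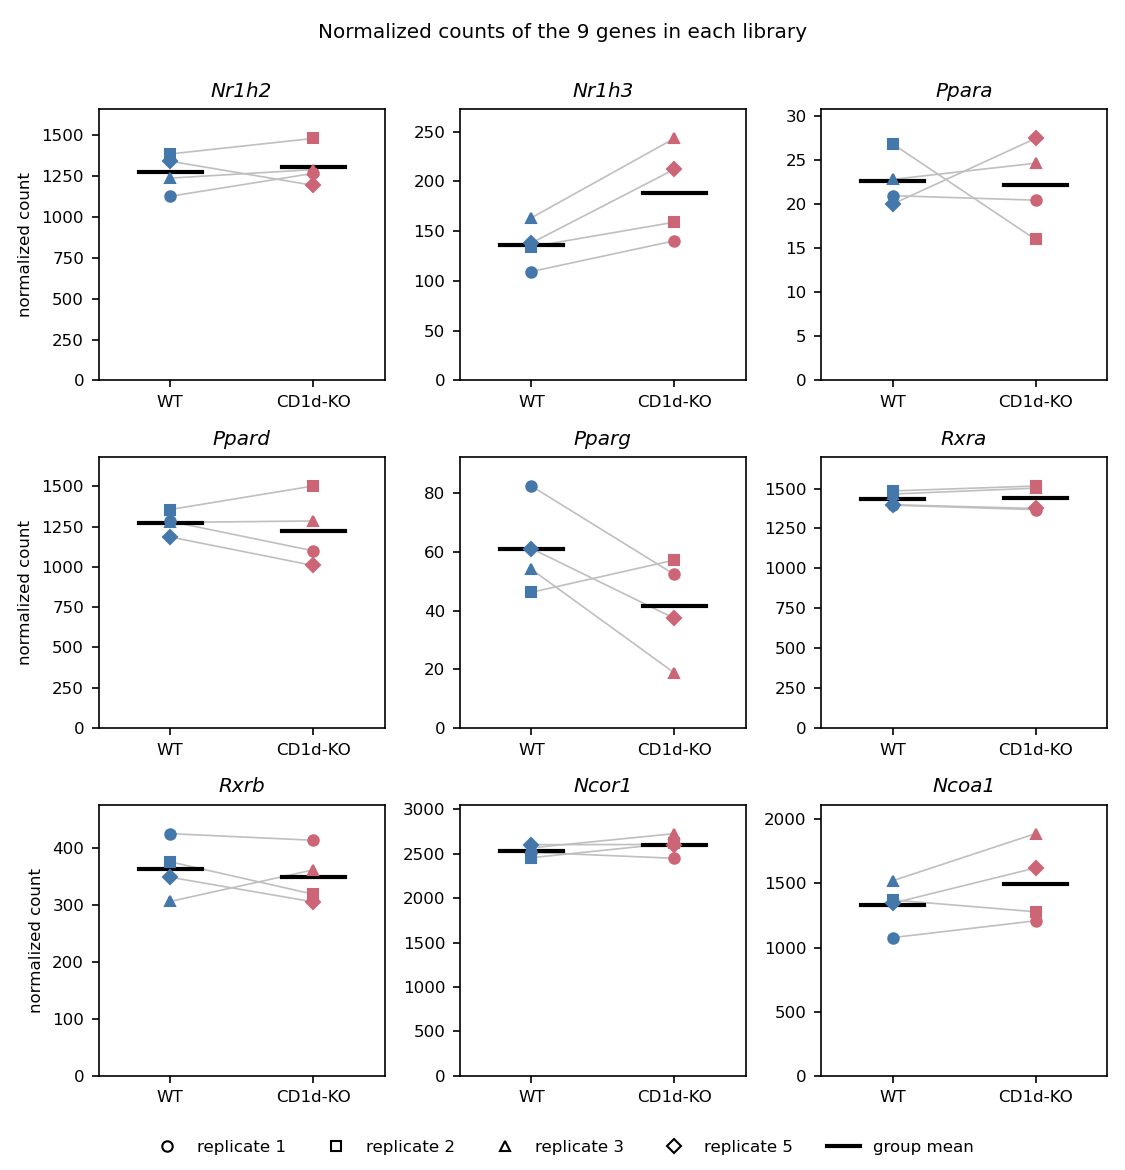
Normalized counts of the 9 genes in the 4 WT and 4 CD1d-KO libraries (a symbol per replicate number, grey lines join a pair, black bars are group means, each axis starts at 0). Lines rise in all 4 pairs for *Nr1h3*, fall in 3 of 4 for *Pparg* and *Rxrb* and cross or lie flat for the rest, with 3 of 4 rising for *Ncoa1*, *Nr1h2* and *Ncor1*.

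The tables also hold a second readout, the gene length that RSEM weights by the share of each transcript, which moves when the mix of transcripts changes and not when the count does. *Ncoa1* has 1 transcript in the files and a fixed length of 7328 bases. For *Ncor1*, which has 25 transcripts between 452 and 9037 bases in the files (15 of them protein-coding and 8 with a retained intron), the weighted length was 3593, 3411, 3374 and 3359.5 bases in WT. It was 3227.5, 3099, 3138 and 3199 bases in CD1d-KO. The weighted length was shorter in the CD1d-KO library of 4 of 4 pairs, and the groups did not overlap. The largest difference, -365 bases, was in pair 1, whose CD1d-KO library goes against its label by its *Cd1d1* count.

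The mean difference was -268 ± 89.5 bases (SD over 4 pairs), or -7.81% of the WT mean, and ran from -304 to -236 bases when each pair was left out in turn (-236 without replicate 1). The exact sign-flip test gave p = 0.125 (two-sided), the smallest that 4 pairs allow. The exact permutation test without pairs gave p = 0.0286, the smallest for 4 against 4, and 0.229 after adjustment over the 8 genes with more than 1 transcript. This second test ignores the pairing and was not among those planned for the lengths. Across the 9370 tested genes with more than 1 transcript, 1.43% were likewise shorter in CD1d-KO without overlap (134 genes, with 113 longer), and *Ncor1* stood at the 9.5th percentile of the length change. The other 7 genes with more than 1 transcript overlapped between genotypes, with mean differences between -12.3% (*Ppara*) and 1.08% (*Ppard*).

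The length enters TPM as a divisor. In TPM *Ncor1* was 83.0, 68.9, 74.4 and 79.2 in WT and 88.1, 82.2, 80.0 and 89.6 in CD1d-KO, higher in 4 of 4 pairs, with means of 76.4 ± 6.13 and 85.0 ± 4.61 (SD, n = 4 each). With limma on log2(TPM + 1) the log2 difference was 0.15 (adjusted p = 0.533), against 0.04 on normalized counts. Exons of *Pigl* and *Ttc19*, which lie on the opposite strand, overlap those of *Ncor1*. They had 40.8 and 202 normalized counts on average, and since the strand setting of the counting is not given in the sources used here, reads in the shared stretch cannot be assigned with certainty.

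**Figure D4:**
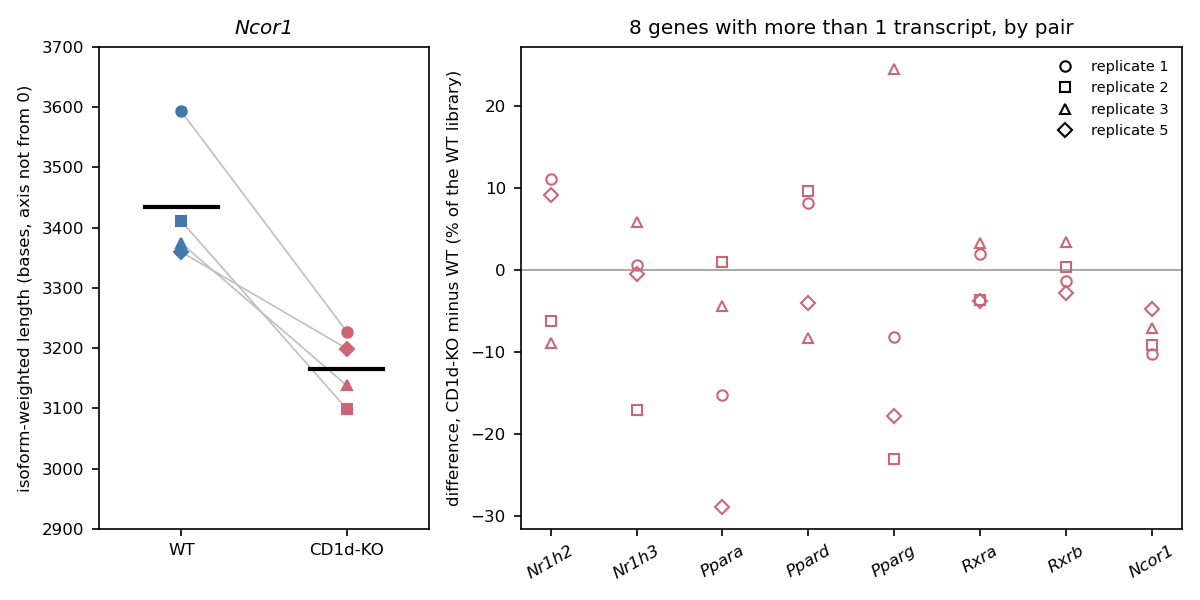
Left, weighted length of *Ncor1* in bases by library (the axis does not start at 0), with pairs joined and bars at the means. Right, difference of the weighted length in each pair, CD1d-KO minus WT in percent of the WT library, for the 8 genes with more than 1 transcript. *Ncor1* is lower in 4 of 4 pairs (-268 bases on average), and each of the other genes has pairs on both sides of 0.

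Genes around the 9 were grouped by role. In edgeR 0 genes in these 6 lists passed the thresholds, while DESeq2 called 4 LXR targets (*Abcg1*, *Apoc2*, *Pltp* and *Lpl*) and 0 genes of the other lists, against 0.989% of all genes it tested. Of 29 other nuclear receptors 19 were tested, with a median log2 fold change of -0.01. At an unadjusted p under 0.05, 1 was higher (*Rora*, a sterol-binding orphan receptor, 0.33) and 1 lower (*Vdr*, the vitamin D receptor, -0.70), which is 2 of 19 against 12.4% of all tested genes. Among the 8 other corepressor genes the highest was *Nrip1*, a corepressor of ligand-bound receptors, at 0.11, and 0 of 8 had an unadjusted p under 0.05. Of 12 other coactivators 11 were tested, with a median of 0.04, from -0.52 for *Lpin1* to 0.99 for *Ppargc1b*, the partner of the estrogen-related receptors in mitochondrial biogenesis. *Lpin1* and *Ppargc1b* had an unadjusted p under 0.05 (2 of 11, against 12.4%), and *Ppargc1b* had 6.45 to 17.9 normalized counts in WT and 14.1 to 23.5 in CD1d-KO.

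The next lists hold genes that the receptors are known to regulate. They were chosen with earlier results of these data known, so a share of their genes above that of all genes is no independent evidence. Of 17 LXR targets, 4 were higher and 6 lower at an unadjusted p under 0.05, which is 10 of 17 against 12.4% of all tested genes. The median was -0.08 on normalized counts and turned to 0.04 with limma on log2(TPM + 1), so no direction can be given for the list. *Abcg1*, which exports sterols to HDL, had 1217, 980.1, 2839 and 1631 normalized counts in WT and 2224, 1753, 4069 and 2642 in CD1d-KO. It was higher in 4 of 4 pairs and the groups overlapped, and edgeR gave a log2 fold change of 0.73 ± 0.08 (SE, adjusted p = 0.0203).

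*Lpl*, lipoprotein lipase, had 25963, 10493, 6981 and 18444 normalized counts in WT and 10791, 7206, 2642 and 6059 in CD1d-KO. It was lower in 4 of 4 pairs, again with overlap, with a log2 fold change of -1.21 ± 0.16 (SE, adjusted p = 0.0392). *Arl4c* (log2 fold change 0.56, adjusted p = 0.0435) and *Apoc2* (-0.64, adjusted p = 0.0254), named after their values were seen, were the only other LXR targets with an adjusted p under 0.05 from edgeR, which makes 4 of 17 against 0.406% of all tested genes. This share too comes from a list chosen with earlier results of these data known. Without replicate 1 the log2 fold changes were 0.68 for *Abcg1* and -1.18 for *Lpl*, and the adjusted p from edgeR rose to 0.0808 for *Abcg1*, 0.112 for *Lpl*, 0.0959 for *Arl4c* and 0.0919 for *Apoc2*. LXR targets stood on both sides of 0, beside a log2 fold change of 0.45 for *Nr1h3* and 0.04 for *Nr1h2*.

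Of 18 PPAR targets 15 were tested, with 0 higher and 2 lower at an unadjusted p under 0.05 (2 of 15, against 12.4% of all tested genes). Their median log2 fold change was -0.06, with 12 of 15 below 0 (against 6390 of all 13040 tested genes). This median was -0.06 without replicate 1 and -0.05 without replicate 5. It reached -0.10 without replicate 3 and -0.11 with limma on log2(TPM + 1). It was -0.12 without the library labelled CD1d-KO replicate 1 (and no replicate block) or with limma on log2(TPM + 0.1). *Cd36*, a fatty acid and oxidized LDL receptor, was the lowest at -0.40 (adjusted p = 0.226 from edgeR) and *Cpt1a*, the gate of mitochondrial fatty acid oxidation, the highest at 0.19. *Cd36* had 17886 to 26088 normalized counts in WT and 11827 to 17131 in CD1d-KO, free of overlap like 1.95% of tested genes. Its adjusted p was 0.0381 from DESeq2 and ran from 0.0152 to 0.997 over all settings tried. Without replicate 1 its log2 fold change was -0.33 (adjusted p = 0.529 from edgeR). *Angptl4* and *Pdk4*, which respond to PPAR ligands in many cells, were among those too low to be tested. Normalized counts of *Angptl4* were 39.7, 11.8, 1.20 and 11.6 in WT and 9.10, 1.14, 1.17 and 6.60 in CD1d-KO. Those of *Pdk4* were 29.2, 9.67, 4.81 and 17.9 in WT and 9.86, 3.43, 4.70 and 4.40 in CD1d-KO. For both genes 0 of 4 pairs were higher in CD1d-KO, and replicate 3 hardly differed. The remaining untested gene was at 3 counts or fewer in every library. Of 20 genes that make or carry ligands 14 were tested, with 2 higher and 0 lower at an unadjusted p under 0.05 (2 of 14, against 12.4%) and a median of 0.15. The range went from -0.20 for *Ch25h* to 0.58 for *Cyp27a1* (adjusted p = 0.358), enzymes that make 25- and 27-hydroxycholesterol.

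**Figure D5:**
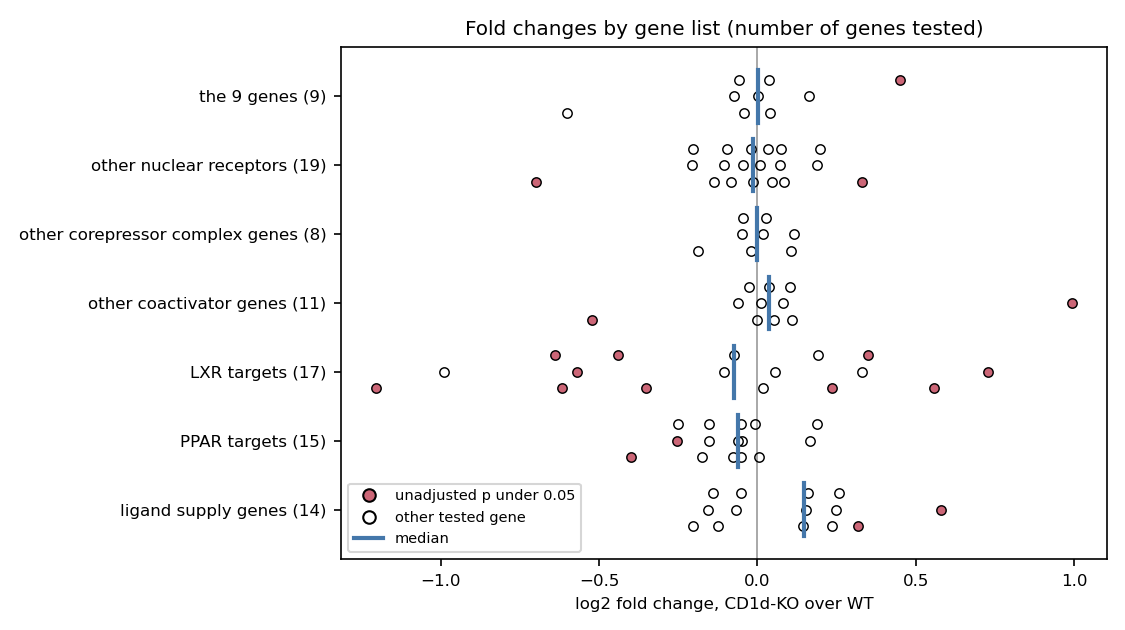
Log2 fold change of each tested gene, CD1d-KO over WT, in the 9 genes and 6 lists (vertical offsets only separate points, blue bars are medians, filled points have an unadjusted p under 0.05). LXR targets spread widest, with 10 of 17 filled on both sides of 0, and the medians of the receptor and cofactor lists lie near 0.

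Across the 8 libraries each gene was also matched to the genes with the most similar profile, by the root mean square distance between log2 values centred on their means, over about 9941 genes with a mean normalized count of at least 50. *Nr1h3* lay nearest *Clcn7*, a lysosomal chloride transporter (distance 0.0892), and *Fam49a* (0.0961), against a spread of its own of 0.34. *Ppard* lay nearest *Cyb5r3* (0.0403) and *Cct7* (0.0514), against a spread of its own of 0.17. *Rxra* lay nearest *Osbp*, an oxysterol-binding protein (0.0247), and *Mtmr2* (0.0265), against a spread of its own of only 0.0564. *Pparg* lay nearest *Gm26778* (0.167) and *Polr1e* (0.185), against a spread of its own of 0.56. The nearest genes were *Zfp719* and *Os9* for *Nr1h2*, *Mfap1a* and *Rmi1* for *Ppara*, *Phospho2* and *Usp3* for *Rxrb*, *Eya3* and *Mllt10* for *Ncor1*, and *Svbp* and *Mycbp2* for *Ncoa1*, at distances from 0.0314 (*Zfp719*) to 0.11 (*Rmi1*). Own spreads of *Nr1h2*, *Ppara*, *Rxrb*, *Ncor1* and *Ncoa1* ran from 0.0485 (*Ncor1*) to 0.24 (*Ncoa1*). *Rxra* and *Ncor1* hardly varied between libraries, so their small distances say little. The distances describe 8 libraries that share genotype and replicate number, and say nothing of common control.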

How the data were processed

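The authors trimmed the reads with cutadapt and quantified them with RSEM 1.3.0 and STAR 2.5.2a against GRCm38. They deposited expected counts (estimated counts, not normalized), TPM (scaled to a fixed total, divided by transcript length) and RSEM's weighted gene length. Of the 48795 gene IDs, 48349 (99.09%) were named by GENCODE M21. Expected counts of the 9 genes were whole in all 8 libraries. Counts were rounded, normalized by TMM, filtered by filterByExpr and tested over 13040 genes with the quasi-likelihood test of edgeR 4.0.16 (R 4.3.3), with genotype and replicate number as terms and Benjamini-Hochberg adjustment. Calls needed an adjusted p under 0.01 together with a change of more than 1.5-fold. Same-numbered libraries deviated together (correlations 0.487, 0.387, 0.505 and 0.207), so the numbers were taken as pairs, although WT replicate 5 correlated as well (0.22) with another of the CD1d-KO libraries. The labels call the libraries biological replicates. The p-values of edgeR rest on the spread between libraries that remains after the replicate block, and those of the sign-flip test on the 4 pair differences. Alternatives were DESeq2 1.42.0, limma 3.58.1 on log2(TPM + 1) and log2(TPM + 0.1), other filters and scalings, no block, and leaving out each pair. Ratios and lengths were compared by exact sign-flip tests over the 4 pairs, and lengths also by an exact permutation test without pairs that was not planned. The code was tested on simulated data. The members and lists were chosen with earlier results of these data known. Genes named are the 9, *Cd1d1*, the highest and lowest tested gene of each list (1 is not reported here), and the 2 nearest profiles of each of the 9. Outside this rule, *Arl4c*, *Apoc2*, *Pltp*, *Cd74*, *H2-Ab1*, *Itgam*, *Cd9*, *Adgre1* and *Gata6* were named after their values were seen. *Rxrg*, *Angptl4*, *Pdk4*, *Adipoq*, *Lep*, *Cidec*, *Pigl* and *Ttc19* were named for their low counts or their overlap with *Ncor1*.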

Additional observations from a re-analysis of the deposited data

Results flagged for a closer look

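The *Cd1d1* count of the library labelled CD1d-KO replicate 1 (60.65 normalized counts) stood far from the other CD1d-KO libraries (0 to 1.144). It was the only such value among 36 groups of 4 libraries examined over the 9 genes and related measures, a rule that chance meets in about 1 of 20 groups.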

How the results depend on the processing

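The 9 genes were called in 0 cases under every alternative run. The count of all genes called, 5 in edgeR with the replicate block, was 105 with DESeq2, 236 with no filter on counts, 3 with limma on log2(TPM + 1), 3 with limma on log2(TPM + 0.1), 53 at an adjusted p under 0.05 with no fold threshold and 48 at that p with it, and ran from 3 (without replicate 3 or 5) to 22 (without replicate 2) when a pair was left out. With no replicate block 3 genes and 0 of the 9 were called, and the block changed no call among the 9.

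Log2 fold changes near 0 changed sign, and the cause was not tested. *Ppara* went from -0.04 to 0.0049 without the library labelled CD1d-KO replicate 1 and with no replicate block, and to 0.088 and 0.14 with limma on log2(TPM + 1) and log2(TPM + 0.1). *Rxra* went to -0.0046 with no filter. With each pair left out, *Nr1h2* ran from -0.0041 to 0.11, *Ppara* from -0.21 to 0.17, *Rxra* from -0.0077 to 0.0134 and *Rxrb* from -0.15 to 0.0025. So did the log2 differences of the ratios *Ppard*/*Pparg* (-0.0871 to 0.81), *Ppara*/*Ppard* (-0.0676 to 0.57), *Rxra*/*Rxrb* (-0.0197 to 0.16), *Ncor1*/*Ncoa1* (-0.12 to 0.0574) and LXR plus PPAR over RXR (-0.0285 to 0.0847). Weighted lengths, whose leave-one-out was added after seeing the data, ran from -36.6 to 62.7 bases for *Nr1h2*, -101.7 to 33.1 for *Nr1h3*, -45.1 to 120.9 for *Ppard*, -86.9 to 25.7 for *Rxra* and -23.6 to 18.0 for *Rxrb*. *Nr1h3*, *Ppard*, *Pparg*, *Ncor1* and *Ncoa1* kept the sign of their log2 fold change under every alternative. Of these, *Pparg* ranged most, from -0.91 without replicate 2 to -0.34 with limma on log2(TPM + 1). *Ppara* (14 to 28 counts) and *Pparg* (16 to 110 counts) had the fewest counts of the 9 and the widest intervals.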
